A study of Cavia porcellus with 35 samples.

Results

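The genes described here build, anchor and cut the perineuronal net and the wider hyaluronan matrix of the brain, and their mRNA was followed in the prefrontal cortex (PFC) of guinea pigs descended from mothers given a synthetic glucocorticoid (sGC). The set was a list of 10 symbols matched in the count tables without regard to case. Of these, 9 were listed in all 4 tables (HAPLN1, HAPLN4, ACAN, BCAN, VCAN, TNR, HAS3, CRTAC1 and ADAMTS5), out of 10949 genes listed in all 4, and NCAN was not analysed here. All 9 also passed the filter on low counts in every table, where 10725 genes could be tested in all 4. HAPLN4 was chosen by its measured values, since it had the lowest p-value of the F3 female table, so the members' values in the F3 contrast are given below as a description, with no test.

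Pregnant guinea pigs received repeated courses of betamethasone or saline in late gestation, and the first generation (F1) was exposed in utero. F1 males, and then F2 males, were mated with females from outside the experiment, so the F2 and F3 animals descend through the paternal line and were not themselves dosed. RNA was sequenced at postnatal day 40 from 4 control and 4 sGC females in each of F1, F2 and F3, and from 5 control and 6 sGC F1 males. Control animals are the saline line and sGC animals the betamethasone line of the same sex and generation, and the labels name no other genotype or agent. The tissue was punched from the cingulate and infralimbic parts of the medial PFC, animals were taken according to the RNA available, and only 1 animal of a sex came from each litter for the female groups. Each sex and generation was deposited as its own table, so a difference in level between tables cannot be told apart from a difference between sequencing or counting runs. The 2 treatment groups of a table were compared within that table.

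Perineuronal nets are lattices of extracellular matrix that wrap the cell body and proximal dendrites of certain neurons, above all the fast-spiking interneurons that contain parvalbumin. Hyaluronan chains made at the cell surface form the backbone, link proteins of the HAPLN family fasten chondroitin sulfate proteoglycans (the lecticans) to that backbone, and tenascin-R crosslinks the lecticans. In the cortex the nets form during juvenile life and are known for limiting plasticity once they have matured, while a looser matrix built of the same families fills the space around other neurons and glia.

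Libraries held between 12819964 and 31763585 counted reads, and those of the F1 males were the deepest of the series. Levels are given as CPM, the reads of a gene scaled to the size of its library, after TMM normalization, which corrects each library for its composition. The extraction text in the labels names the paraventricular nucleus although the source is given as prefrontal cortex. Markers of that hypothalamic nucleus summed to at most 19.3 CPM in any animal, whereas 7 markers of excitatory cortical neurons summed to between 1801 and 6930 CPM. In F1 females the libraries differed in regional markers as well: 8 markers of striatal medium spiny neurons summed to 2814, 616, 945 and 2592 CPM in the 4 controls and to between 272 and 666 CPM in the sGC animals. Fold changes in F1 females are therefore also given without controls 1 and 4, a choice made after seeing the data. This does not even out other cell types. In controls 2 and 3, which remain, excitatory markers summed to 1971 and 1801 CPM, against 3208 to 6930 CPM in the sGC animals. Mature oligodendrocyte markers summed to 14733 and 9427 CPM in these controls, against 3425 to 6974 CPM. F3 females differed in such markers too. The 8 striatal markers summed to 351 to 1110 CPM in F3 controls and 232 to 526 CPM in F3 sGC animals. The 7 excitatory markers summed to 2030 to 2097 and 2568 to 2844 CPM there, control and sGC, without overlap. The part of this in the F3 values of the members was not tested.

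Across the set, few genes passed an adjusted p-value (FDR) of 0.05 in edgeR's quasi-likelihood test with Benjamini-Hochberg adjustment over all genes. In F1 females 1 of 9 passed, BCAN, which fell, where 16.5% of all tested genes passed and 7.33% fell. None of 9 passed in F2 females in edgeR's quasi-likelihood test, where 0.278% of all genes did. At an unadjusted p under 0.05 there was 1 of 9, beside 16.1% of all genes. In edgeR's likelihood ratio test and in DESeq2 1 of 9 passed, beside 534 and 473 of 11132 genes. In F1 males 1 of 9 passed, VCAN, which rose, against 9.22% of all genes, with 5.74% that rose. In F3 females, the contrast by which HAPLN4 was picked, the choice itself placed 1 of 9 past the threshold, HAPLN4, beside 1.34% of all genes, and nothing is read from that count. In the quasi-likelihood test 3858 of 11268 genes had an unadjusted p under 0.05 in F1 females and 1789 of 11132 in F2 females. There were 1973 of 11420 in F3 females and 2900 of 11524 in F1 males. Counts at that level given below are to be read beside these.

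**Figure D1:**
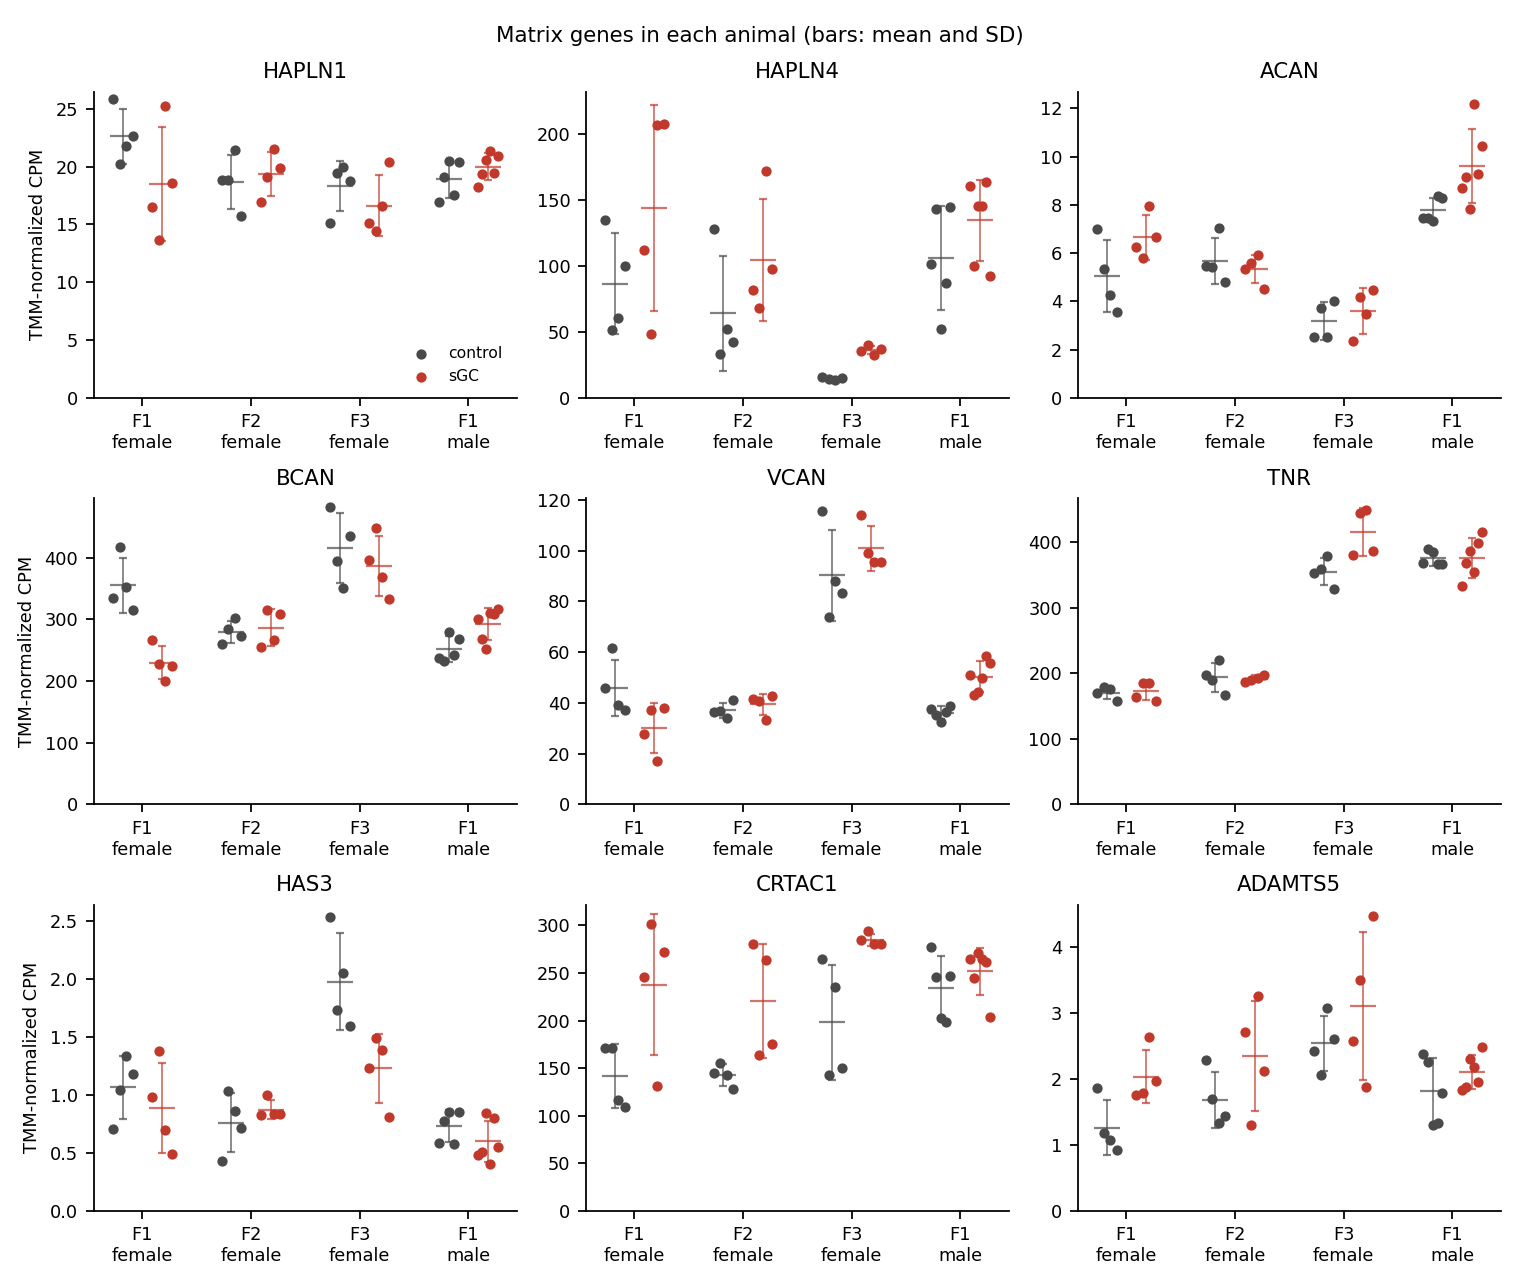
TMM-normalized CPM (vertical axis, from 0) of each of the 9 genes in every animal, in control (grey) and sGC (red) animals of the 4 tables, with horizontal marks for means and bars for SD. HAPLN4 spread from 48.1 to 208 CPM within F1 sGC females but stayed between 32.5 and 40.1 CPM in F3 sGC females, and BCAN in F1 females and VCAN in F1 males showed groups that did not overlap.

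The median log2 fold change of the 9 genes (sGC minus control) was 0.02 in F1 females, 0.09 in F2 females, 0.17 in F3 females and 0.22 in F1 males. The medians over all tested genes were -0.03, 0.01, -0.01 and -7.26e-05 in the same order. Irrespective of sign, the median size of the log2 fold change was 0.61 for the 9 genes in F1 females against 0.17 for all genes, and 0.09 against 0.10 in F2 females. It was 0.22 against 0.09 in F1 males. Scatter between animals also enlarges such sizes, so they are a description. In F1 females HAPLN1, HAPLN4, ACAN, VCAN, HAS3, CRTAC1 and ADAMTS5 had a larger SD within groups than 79.7% to 98.7% of genes. BCAN and TNR exceeded 60% and 30.3%. HAPLN4, CRTAC1 and ADAMTS5 had a higher fitted level in sGC animals in F1 females, F2 females and F1 males. None of these differences passed in edgeR's quasi-likelihood test. All of these genes were also higher in F3 females, the contrast used for the choice, where the direction of HAPLN4 is no added evidence. BCAN and HAPLN1 were higher in 2 tables and lower in 2.

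**Figure D2:**
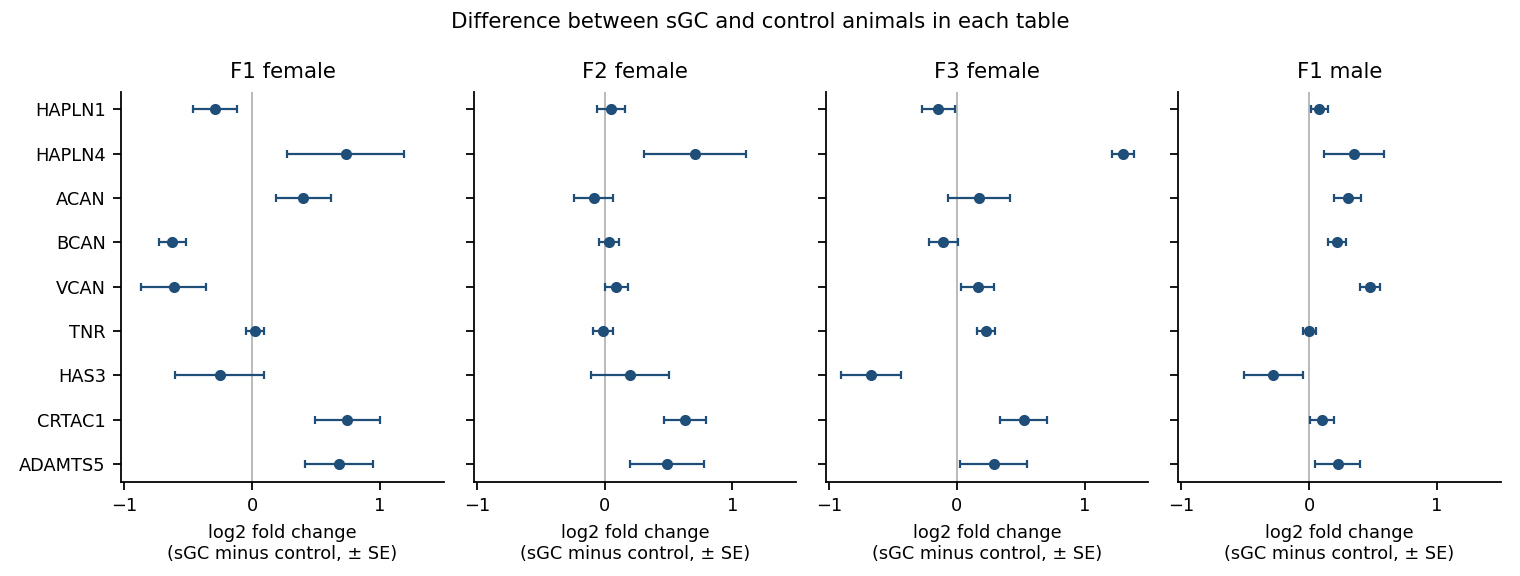
Fitted log2 fold change, sGC minus control, of the 9 genes (rows) in each table (panels), with bars for ± 1 SE and a line at 0. BCAN and VCAN lay at -0.63 and -0.61 in F1 females and at 0.22 and 0.48 in F1 males, while TNR lay at 0.02, -0.015 and 0.00204 in F1 females, F2 females and F1 males.

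HAPLN4 encodes the brain link protein that holds brevican in the nets around neurons. In F3 females its level was 16.2, 14.0, 13.4 and 15.3 CPM in the 4 controls and 35.5, 40.1, 32.5 and 36.9 CPM in the 4 sGC animals. The lowest sGC animal was above the highest control. The group means were 14.7 ± 1.25 and 36.3 ± 3.14 CPM (SD, n = 4 each), a fitted log2 fold change of 1.30 (SE 0.09), and HAPLN4 ranked 1 by p in that table. By the way it was picked this difference is a description only. A fall or rise in such bulk tissue can come from a change in the number of cells of a type or in the RNA of each cell, and these cannot be told apart here.

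Outside F3, HAPLN4 levels were higher and far more scattered. F1 females held 135, 51.3, 60.3 and 99.7 CPM in controls and 112, 48.1, 207 and 208 CPM in sGC animals. Both groups reached down to about the same level, and 2 sGC animals stood above every control. On the log2 scale sGC animals differed from controls by 0.73 (SE 0.46, FDR 0.289 in edgeR's quasi-likelihood test), and by 0.50 to 1.05 with 1 animal left out, none of 8 such fits passing. Without controls 1 and 4, which had the highest HAPLN4 of the controls, it was 1.39 with an FDR of 0.126.

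F2 females showed the same scatter for HAPLN4, with 128, 33.4, 52.1 and 42.2 CPM in controls and 81.5, 68.1, 172 and 98.1 CPM in sGC animals. A single control lay among the sGC animals, above 3 of them. This gave a log2 fold change of 0.71 (SE 0.40, FDR 0.418 in edgeR's quasi-likelihood test), and it was 1.30 with an FDR of 0.0469 when control 1, the high one, was left out. Leaving out other F2 animals gave a value as low as 0.36.

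F1 males had 102, 143, 52.0, 87.1 and 145 CPM of HAPLN4 in controls, and the 6 sGC males ran from 92.7 through a median of 146 to 164 CPM. The groups overlapped over most of their range, with 4 of 6 sGC males above the highest control. The fitted difference (log2, sGC minus control) was 0.35 (SE 0.23, FDR 0.397 in edgeR's quasi-likelihood test). Between F1 females and F1 males the log2 fold change differed by -0.39 (male minus female, 95% interval -1.46 to 0.69), and between F1 and F2 females by -0.02 (F2 minus F1, -1.46 to 1.41), so that neither difference was resolved.

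The scatter of HAPLN4 was itself unusual. Its SD of log2 CPM within groups was 0.838 in F1 females, larger than that of 98.7% of tested genes, whose median SD was 0.142. In F2 females it was 0.725, larger than that of 99.3% of genes, and in F1 males 0.499, larger than that of 96.7%. The F3 females differed from these, with an SD of 0.123 that exceeded only 49% of genes. A choice by the lowest p in that contrast favours a small SD and separate groups there. The F3 scatter and the gap between the F3 groups are therefore a description only. Ordered by mean, the F3 controls had the lowest HAPLN4 of the 8 groups, followed by the F3 sGC animals, and the ranges of these neighbours did not overlap. From the F2 controls at 64.0 CPM up to the F1 sGC females at 144 CPM, each group overlapped the next.

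The fast-spiking interneurons on which nets are known to sit are marked by PVALB, the calcium buffer parvalbumin. PVALB was 19.4 ± 2.15 CPM in F3 controls and 36.7 ± 5.04 CPM in F3 sGC animals (SD, n = 4 each). It was 69.1 ± 11.7 and 122 ± 61.1 CPM in F1 females, 62.1 ± 30.2 and 92.5 ± 36.2 CPM in F2 females, and 79.9 ± 21.4 (n = 5) and 102 ± 17.8 CPM (n = 6) in F1 males. PVALB was above 0 in every animal, and its group mean was higher in sGC animals in each table, as was that of HAPLN4, picked in F3 females. Other fast-spiking markers did not all do so. Of 14 tested markers, PVALB included, 9, 9, 10 and 6 were higher and 5, 5, 4 and 8 lower in F1, F2 and F3 females and F1 males.

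Of 14 tested markers of fast-spiking interneurons, 1 rose and 2 fell in F1 females, beside 9.21% and 7.33% of all genes. In F1 males 1 fell, beside 9.22% of all genes that passed in either direction. In F3 females 6 rose and none fell, beside 1.07% of all genes that rose, but HAPLN4 was picked in that contrast and follows these markers among animals, so nothing is read from that count. No marker passed in F2 females in edgeR's quasi-likelihood test, with 4 of 14 at an unadjusted p under 0.05. The summed level of the list ran from 1108 to 1330 CPM in F3 controls and from 1238 to 1459 CPM in F3 sGC animals. In F1 females the sums were 1706 to 2365 and 1643 to 2846 CPM, in F2 females 1322 to 1940 and 1430 to 2463 CPM, and in F1 males 1533 to 2094 and 1781 to 2225 CPM, control and sGC in that order. What part the number of such cells had in HAPLN4 was not tested.

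After removing group means, the log2 CPM of HAPLN4 and PVALB rose and fell together over the 35 animals (Pearson's r = 0.92, Spearman's rho = 0.91), and r was 0.88 in 33 animals without the 2 farthest in PVALB. Within tables r was 0.94 in F1 females, 0.94 in F2 females, 0.93 in F1 males and 0.28 in F3 females, where the scatter of HAPLN4 was small. These points share a library, its depth and its punch, and the correlation is a description. Among the genes most like HAPLN4 in this measure, of 10725, were NEFH (r = 0.93) and VAMP1 (r = 0.93), the heavy neurofilament and a synaptic vesicle protein, and both belong to the fast-spiking list.

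**Figure D3:**
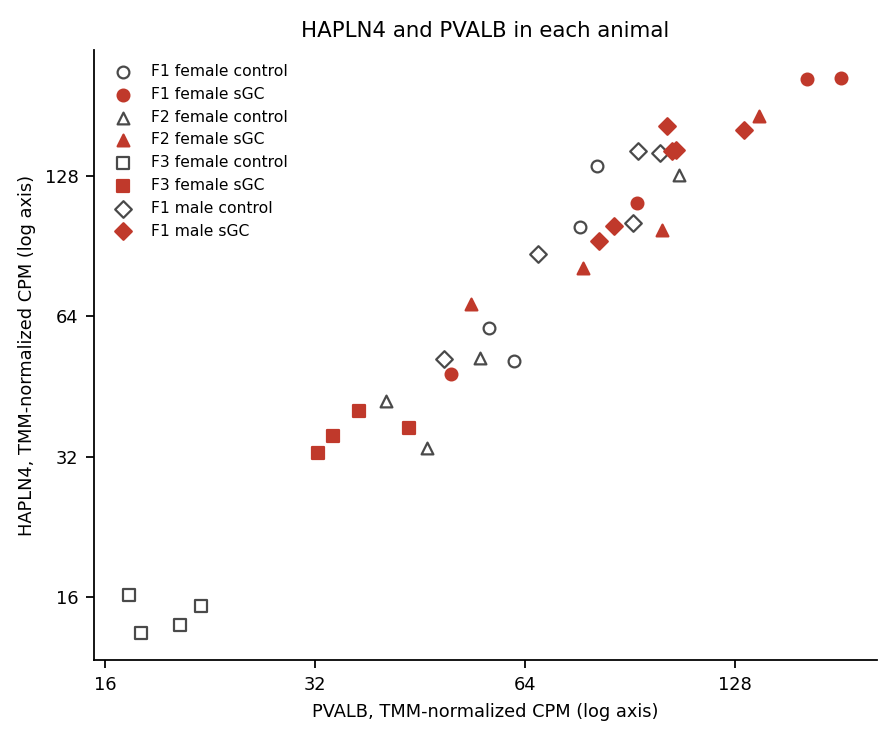
HAPLN4 against PVALB in each of the 35 animals, both as TMM-normalized CPM on log axes, with open symbols for controls, filled symbols for sGC animals and a shape for each table. The 4 F3 controls stand alone at 13.4 to 16.2 CPM of HAPLN4, and the animals of the other tables lie along 1 band on which control and sGC animals mix.

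HAPLN1 encodes the link protein shared by cartilage and brain, and it passed the test in none of F1 females, F2 females and F1 males. F1 females had 25.9, 20.2, 21.8 and 22.7 CPM in controls and 16.5, 13.6, 25.2 and 18.6 CPM in sGC animals. Of the sGC animals 3 lay below every control and 1 near the highest. The log2 fold change was -0.29 (SE 0.17, FDR 0.259 in edgeR's quasi-likelihood test) and -0.16 (FDR 0.655) without controls 1 and 4, and it was 0.05 (SE 0.11) in F2 females and 0.08 (SE 0.07) in F1 males, with FDRs of 0.870 and 0.500. In F3 females it was -0.14 (SE 0.13). Means of the 8 groups ran from 16.6 to 22.6 CPM and each group overlapped the next, which set HAPLN1 apart from its relative HAPLN4. The genes most like HAPLN1 over the 35 animals were KCNA2, RORA and SORCS1 (r = 0.78, 0.77 and 0.77).

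Of the lecticans, brevican (BCAN) is the small brain proteoglycan made largely by glia, and it was the 1 member past the threshold in F1 females. F1 females had 335, 417, 352 and 315 CPM of BCAN in controls and 267, 228, 201 and 225 CPM in sGC animals. All 4 sGC animals lay below the lowest control, which was so for 11.2% of all genes in that table. BCAN fell, at -0.63 on the log2 scale (SE 0.11, FDR 0.00875 in edgeR's quasi-likelihood test), from 355 ± 44.2 to 229.9 ± 27.4 CPM (SD, n = 4 each). It passed in each of 8 fits without 1 animal, with FDRs of 0.0126 to 0.0339, and without controls 1 and 4 it was -0.72 with an FDR of 0.0166.

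F1 males went the other way for BCAN, with 237, 233, 279.6, 242 and 268 CPM in controls and a lowest, median and highest sGC value of 251, 304 and 317 CPM. Of 6 sGC males 4 stood above the highest control. The log2 fold change of 0.22 (SE 0.07) did not pass in edgeR's quasi-likelihood test (FDR 0.0683), while edgeR's likelihood ratio test and DESeq2 gave FDRs of 0.0363 and 0.0322. The response of males exceeded that of F1 females by 0.83 on the log2 scale (SE 0.13, FDR 0.000161, interaction term of edgeR's quasi-likelihood test). Of the 9 genes 2 differed in response between these tables, BCAN and VCAN, against 31.7% of all genes tested. Sex and table cannot be told apart in this comparison.

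F2 females had 259.6, 284, 301 and 273 CPM of BCAN in controls and 255, 316, 267 and 308 CPM in sGC animals. The groups overlapped throughout. On the log2 scale sGC animals differed from controls by 0.03 (SE 0.08, FDR 0.877 in edgeR's quasi-likelihood test), and it exceeded that of F1 females by 0.65 (SE 0.14, FDR 0.00988, interaction term). BCAN was the 1 gene of 9 that differed between F1 and F2 females, where 13.8% of all genes did. In F3 females BCAN was 482, 394, 351 and 435 CPM in controls and 396, 448, 368 and 332 CPM in sGC animals, again overlapping, at a log2 fold change of -0.11 (SE 0.11).

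Levels of the markers of glia are given here beside those of BCAN. In F1 females 4 of 9 astrocyte markers fell and none rose, beside 7.33% of all genes that fell. Their summed levels were 8607 to 9692 CPM in controls and 8130 to 8603 CPM in sGC animals. In F1 males 1 of 9 rose, beside 5.74% of all genes, with sums of 7598 to 8153 and 7792 to 10970 CPM. None of 9 passed in F2 females (3 at an unadjusted p under 0.05 in edgeR's quasi-likelihood test), where sums were 8527 to 10026 and 9447 to 11196 CPM, or in F3 females (1 at that level), where they were 11747 to 12195 and 11399 to 13360 CPM. The astrocyte filament gene GFAP was present in every animal. Of 8 markers of oligodendrocyte precursors, which also make brevican and versican, 1 fell in F1 females and 3 rose in F1 males. Of all genes, 7.33% fell in F1 females and 5.74% rose in F1 males. The precursor sums were 449 to 961 against 426 to 505 CPM and 484 to 561 against 612 to 728 CPM. PDGFRA, the defining receptor of these precursors, had means of 69.2 and 52.4 CPM in F1 females and 54.2 and 52.4 CPM in F1 males, control and sGC. The part of these cell types in the change of BCAN was not tested.

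VCAN encodes versican, the large lectican of the diffuse matrix and of nodes of Ranvier. F1 males had 37.7, 35.2, 32.6, 36.5 and 38.9 CPM in controls, and the sGC males had a lowest, median and highest value of 43.1, 50.2 and 58.4 CPM. All 6 sGC males lay above the highest control, as did 4.22% of all genes in that table. VCAN rose by 0.48 on the log2 scale (SE 0.08, FDR 0.00482 in edgeR's quasi-likelihood test), from 36.2 ± 2.43 (n = 5) to 50.4 ± 6.08 CPM (SD, n = 6). It passed in all 11 fits without 1 animal, with FDRs of 0.00268 to 0.0162.

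In F1 females VCAN was 45.7, 61.4, 39.0 and 37.3 CPM in controls and 27.7, 37.2, 17.0 and 38.0 CPM in sGC animals. The highest sGC animal was level with the lowest controls and the other 3 lay below them all. This gave a log2 fold change of -0.61 (SE 0.25, FDR 0.125 in edgeR's quasi-likelihood test), and -0.72 (FDR 0.157) without controls 1 and 4. The response of males exceeded that of females by 1.08 (SE 0.25, FDR 0.00306, interaction term), and by 1.21 without F1 female controls 1 and 4 (FDR 0.00299).

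VCAN passed no test in F2 females, and its groups overlapped in both later generations. F2 females gave 36.3, 36.6, 34.1 and 41.1 CPM in controls and 41.4, 40.7, 33.4 and 42.5 CPM in sGC animals, and F3 females 116, 73.7, 87.8 and 83.5 against 114, 99.0, 95.4 and 95.4 CPM. The fitted difference (log2, sGC minus control) was 0.09 (SE 0.09, FDR 0.660 in edgeR's quasi-likelihood test) in F2 and 0.16 (SE 0.13) in F3.

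VCAN followed GFAP among animals, with group means removed (r = 0.76, rho = 0.69 over 35 animals, and r = 0.70 in 33 without the 2 farthest in GFAP). Within tables r was 0.94 in F1 females, 0.09 in F2 females, 0.96 in F3 females and 0.71 in F1 males. GFAP itself was 411 ± 132 and 189 ± 105 CPM in control and sGC F1 females (SD, n = 4 each) and 244 ± 69.0 (n = 5) and 404 ± 144 CPM (n = 6) in F1 males. The genes most like VCAN were ID3 (r = 0.88), CSF1 (r = 0.87) and FAN1 (r = 0.85), and those most like BCAN were TNS3 (r = 0.78), ABL1 (r = 0.76) and CYB5R3 (r = 0.75). Between BCAN and VCAN r was 0.47.

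ACAN, which encodes aggrecan, the lectican that marks mature nets most sharply, was read at a low level, from 3.20 to 9.60 CPM as group means. F1 males had 7.45, 7.45, 7.31, 8.36 and 8.26 CPM in controls and a lowest, median and highest sGC value of 7.83, 9.21 and 12.2 CPM. Of 6 sGC males 5 exceeded the highest control. The log2 fold change was 0.30 (SE 0.11, FDR 0.0892 in edgeR's quasi-likelihood test).

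F1 females had ACAN at 7.003, 5.33, 4.28 and 3.55 CPM in controls and 6.25, 5.79, 7.96 and 6.65 CPM in sGC animals. Control 1 stood among the sGC animals. On the log2 scale sGC animals differed from controls by 0.40 (SE 0.22, FDR 0.221 in edgeR's quasi-likelihood test), and by 0.50 with an FDR of 0.122 without controls 1 and 4. Of 8 fits without 1 animal 1 passed, at 0.63 (FDR 0.0491) without control 1, and the lowest value was 0.26 (FDR 0.403) without control 4. It was -0.09 (SE 0.15, FDR 0.8289) in F2 females and 0.17 (SE 0.24) in F3 females. IL12RB1, RHOJ and DDRGK1 were most like ACAN, at r = 0.68, 0.62 and 0.60, the weakest likeness of any of the 9 genes.

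TNR, the crosslinker tenascin-R, had the smallest fitted differences of the 9 genes in F1 females, F2 females and F1 males. It was 171 ± 9.05 CPM in control and 173 ± 14.5 CPM in sGC F1 females, 194 ± 21.7 and 192 ± 4.95 CPM in F2 females (SD, n = 4 each), and 376 ± 10.98 (n = 5) and 376 ± 30.5 CPM (n = 6) in F1 males. The log2 fold changes were 0.02 (95% interval -0.14 to 0.18), -0.015 (-0.19 to 0.16) and 0.00204 (-0.11 to 0.12), and their sign changed with the normalization or with 1 animal left out. The FDRs in edgeR's quasi-likelihood test were 0.839, 0.949 and 0.988.

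In F3 females TNR was 353, 359.8, 379 and 329 CPM in controls and 381, 445, 449.9 and 387 CPM in sGC animals. The groups did not overlap, although the lowest sGC animal was only just above the highest control. This gave a log2 fold change of 0.23 (SE 0.07). Non-overlapping groups were found for 4 of the 9 genes in F3 females (HAPLN4, TNR and CRTAC1 higher, HAS3 lower) beside 10.3% of all genes (5.95% higher and 4.35% lower), in the contrast that was used for the choice. Means of TNR were below 195 CPM in F1 and F2 females and above 350 CPM in F3 females and F1 males, a step that lies between tables.

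HAS3, one of the enzymes that spin hyaluronan, was barely expressed, with 6 to 44 reads in a library. F3 females had 2.53, 1.73, 2.05 and 1.59 CPM in controls and 1.23, 1.49, 1.39 and 0.80 CPM in sGC animals. Every sGC animal was below every control. The fitted difference (log2, sGC minus control) was -0.67 (SE 0.24). In the tables outside the choice it was -0.26 (SE 0.35, FDR 0.630) in F1 females, 0.20 (SE 0.30, FDR 0.798) in F2 females and -0.28 (SE 0.23, FDR 0.500) in F1 males by edgeR's quasi-likelihood test, and -0.40 (FDR 0.558) without F1 female controls 1 and 4. HAS3 went against PVALB among the 35 animals (r = -0.61) and was most like SLC7A3, ZCCHC18 and MTSS1 (r = 0.72, 0.71 and 0.67).

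CRTAC1 encodes a cartilage acidic protein that is also known in brain as LOTUS, a binding partner and blocker of the Nogo receptor, through which chondroitin sulfate proteoglycans also act. F2 females had 145, 156, 143 and 128 CPM in controls and 281, 164, 264 and 175 CPM in sGC animals. All 4 sGC animals stood above the highest control, 2 of them only slightly, as was so for 4.08% of all genes in that table. The log2 fold change was 0.63 (SE 0.16, 95% interval 0.27 to 0.99), and it failed in edgeR's quasi-likelihood test (FDR 0.0933) while passing in edgeR's likelihood ratio test and DESeq2 (FDRs 0.00704 and 0.00595). Of 8 fits without 1 animal 1 passed in the quasi-likelihood test, with FDRs of 0.0149 to 0.249.

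F1 females resembled them, with CRTAC1 at 171, 171, 116 and 109 CPM in controls and 246, 301, 132 and 272 CPM in sGC animals. Of 4 sGC animals 3 stood above every control. On the log2 scale sGC animals differed from controls by 0.75 (SE 0.26, FDR 0.0771 in edgeR's quasi-likelihood test, and 0.0300 and 0.016 in edgeR's likelihood ratio test and DESeq2), and by 0.75 with an FDR of 0.1497 without controls 1 and 4. Of 8 fits without 1 animal 1 passed, at 0.95 (FDR 0.0172) without sGC animal 3, and the values ran down to 0.61, with FDRs of up to 0.169.

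F3 females had 264, 143, 235 and 150.0 CPM in controls and 285, 294, 281 and 280.0 CPM in sGC animals. The sGC animals were tightly grouped above controls that fell into a high and a low pair. This gave a log2 fold change of 0.52 (SE 0.18).

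In F1 males CRTAC1 was 278, 246, 203, 199 and 247 CPM in controls, and the sGC males ran from 204 through a median of 263 to 271 CPM. No sGC male was above the highest control. The fitted difference (log2, sGC minus control) was 0.10 (SE 0.09, FDR 0.546 in edgeR's quasi-likelihood test). The male response was lower than that of F1 females by a difference of -0.65 (SE 0.26, FDR 0.0631, interaction term) and lower than that of F2 females by -0.53 (SE 0.19, FDR 0.413), neither of which passed. None of the 9 genes differed in response between F2 females and F1 males in edgeR's quasi-likelihood test, its likelihood ratio test or DESeq2. In the quasi-likelihood test 3 of 9 had an unadjusted p under 0.05, beside 1001 of all 11198 genes. There 0% of all genes passed, against 22 and 26 genes in the likelihood ratio test and DESeq2.

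CRTAC1 tracked SLC17A7, the vesicular glutamate transporter of excitatory cortical neurons, among the 35 animals (r = 0.59, rho = 0.66), with r of 0.61 in F1 females, 0.92 in F2 females, 0.94 in F3 females and 0.83 in F1 males. SLC17A7 was 429 ± 378 and 1752 ± 1230 CPM in control and sGC F1 females and 639 ± 180 and 1050 ± 96.5 CPM in F3 females (SD, n = 4 each). It was 1326 ± 36.3 and 1380 ± 124 CPM in F2 females, and 1472 ± 116 (n = 5) and 1409 ± 55.0 CPM (n = 6) in F1 males.

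The 7 excitatory markers summed to 1801 to 3282 CPM in control and 3208 to 6930 CPM in sGC F1 females, to 4015 to 4196 and 3742 to 4139 CPM in F2 females, to 2030 to 2097 and 2568 to 2844 CPM in F3 females and to 3922 to 4665 and 3484 to 3940 CPM in F1 males. None of 7 passed in edgeR's quasi-likelihood test in F1 females, F2 females or F1 males. At an unadjusted p under 0.05 there were 7, 1 and 3, beside 3858 of 11268, 1789 of 11132 and 2900 of 11524 of all genes. In F3 females 1 rose, beside 1.07% of all genes. In F2 females, where CRTAC1 groups did not overlap, the sums of the groups did. Beyond that, the part of excitatory neurons in the CRTAC1 values was not tested. The genes most like CRTAC1 were NOV (r = 0.91), NPTX1 (r = 0.88) and CTGF (r = 0.88), of which NOV and CTGF are secreted matricellular proteins of the CCN family and NPTX1 is a neuronal pentraxin. Its closest member was VCAN (r = 0.62).

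ADAMTS5 encodes an aggrecanase, a secreted protease that cuts lecticans. It was read at 14 to 71 reads in a library. F1 females had 1.87, 1.18, 1.07 and 0.92 CPM in controls and 1.76, 1.79, 2.63 and 1.96 CPM in sGC animals. Control 1 lay among the sGC animals and the other 3 below them all. The log2 fold change was 0.68 (SE 0.26, FDR 0.106 in edgeR's quasi-likelihood test), and 0.88 with an FDR of 0.0826 without controls 1 and 4. Of 8 fits without 1 animal 1 passed, at 0.96 (FDR 0.0286) without control 1, and the values ran down to 0.53, with FDRs of up to 0.238.

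In F2 females ADAMTS5 was 2.28, 1.69, 1.33 and 1.43 CPM in controls and 2.71, 1.31, 3.26 and 2.11 CPM in sGC animals, and the lowest animal of all was an sGC one. On the log2 scale sGC animals differed from controls by 0.49 (SE 0.29, FDR 0.445 in edgeR's quasi-likelihood test). It was 0.22 (SE 0.18, FDR 0.486) in F1 males and 0.29 (SE 0.26) in F3 females. ADAMTS5 went with HAPLN4 (r = 0.50) and PVALB (r = 0.56) among animals and was most like CPLX2, KLHL29 and MRPS26 (r = 0.86, 0.81 and 0.80).

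The 9 genes did not move as 1 block among animals. Over 35 animals and with group means removed, r between members ran from -0.64 (HAPLN1 with VCAN) to 0.62 (VCAN with CRTAC1). HAPLN1 went with ACAN (r = 0.49) and HAPLN4 (r = 0.44), which are net components, while HAPLN4 was at r = -0.25 with VCAN and -0.30 with BCAN. TNR was most like LCOR, SLC35A5 and PDCD6IP (r = 0.77, 0.70 and 0.67). All of these points share library, depth and punch, and no test was made of them.

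Around the set stand genes that make and turn over hyaluronan. Of 16 tested in F1 females 1 rose and 2 fell, beside 9.21% and 7.33% of all genes, of 16 in F2 females 1 rose, beside 0.278% of all genes in either direction, and of 17 in F1 males 1 rose, beside 5.74%, by edgeR's quasi-likelihood test. None of 17 passed in F3 females, with 2 at an unadjusted p under 0.05. HAS1, another hyaluronan synthase, went from 47.3 ± 1.69 to 63.1 ± 2.17 CPM in F1 females (SD, n = 4 each), a log2 fold change of 0.42 (SE 0.05, FDR 0.00390, edgeR's quasi-likelihood test), and 0.41 (FDR 0.0172) without controls 1 and 4. The 2 groups did not overlap. In F2 females HAS1 was 56.5 and 53.8 CPM and in F1 males 10.96 and 10.7 CPM, control and sGC (FDRs 0.658 and 0.916). HAS2 was under 1 CPM where it could be tested, with log2 fold changes of 0.12 in F1 males and 0.59 in F3 females.

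The other link proteins were HAPLN2, which sits at nodes of Ranvier, and HAPLN3. HAPLN2 rose in F2 females from 6.26 ± 1.82 to 20.5 ± 8.08 CPM (SD, n = 4 each), a log2 fold change of 1.70 (SE 0.28, FDR 0.0443, edgeR's quasi-likelihood test). It passed in 2 of 8 fits without 1 animal, those without control 1 and without sGC animal 2, and the FDR rose to 0.167 without control 3, at log2 fold changes of 1.42 to 1.92. HAPLN2 was 17.0 and 30.8 CPM in control and sGC F1 males (log2 fold change 0.86, FDR 0.0526), and 24.5 and 17.7 CPM in F1 females (-0.47, FDR 0.277). Levels of the markers of mature oligodendrocytes are given beside it. In F2 females all 8 were higher in sGC animals, though none passed in edgeR's quasi-likelihood test (7 at an unadjusted p under 0.05), and their sums were 3022 to 4681 and 4516 to 10649 CPM. In F1 males 8 of 8 rose, beside 5.74% of all genes, with sums of 3325 to 6341 and 7130 to 12116 CPM. All 8 were lower in F1 females with none passing (2 at that level), with sums of 4321 to 14733 and 3425 to 6974 CPM. The part of oligodendrocytes in HAPLN2 was not tested. HAPLN3 stayed between 0.99 and 2.19 CPM and passed in no table.

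STAB1, a scavenger receptor for hyaluronan, fell in F1 females from 16.0 ± 1.36 to 11.1 ± 1.14 CPM (SD, n = 4 each, log2 fold change -0.53, FDR 0.0131, and -0.46 with an FDR of 0.0453 without controls 1 and 4). HYAL1, a hyaluronidase, rose in F1 males from 4.10 ± 0.86 (n = 5) to 6.51 ± 0.81 CPM (SD, n = 6, log2 fold change 0.67, FDR 0.0110). Both tests are edgeR's quasi-likelihood test.

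Among enzymes that build and sulfate chondroitin chains, 3 of 19 fell and none rose in F1 females, beside 7.33% of all genes that fell. In F1 males 1 rose and 1 fell by edgeR's quasi-likelihood test, beside 9.22% of all genes in either direction. None of 19 passed in F2 or F3 females, with 4 and 5 at an unadjusted p under 0.05. CHST3, which adds the 6-sulfate of juvenile matrix, fell in F1 females from 40.4 ± 10.3 to 24.9 ± 2.54 CPM (log2 fold change -0.69, SE 0.17, FDR 0.0267). It rose in F1 males from 28.7 ± 2.64 to 37.1 ± 5.38 CPM (0.37, SE 0.10, FDR 0.0304). With 1 animal left out CHST3 passed in 5 of 8 fits in F1 females and in 7 of 11 in F1 males, with FDRs of up to 0.0688 (without F1 female sGC animal 1) and 0.0726 (without F1 male control 3), and it was -0.91 (FDR 0.0149) without F1 female controls 1 and 4. CHST14, a dermatan sulfotransferase, fell in F1 females from 7.66 to 4.85 CPM (-0.66, FDR 0.0131, and -0.64 with an FDR of 0.0467 without controls 1 and 4), and DSEL, a dermatan sulfate epimerase, fell in F1 males from 23.9 to 14.5 CPM (-0.73, FDR 0.0135).

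Matrix proteases and their inhibitors gave 2 of 14 that fell in F1 females, beside 7.33% of all genes, and 2 of 14 that rose in F1 males, beside 5.74%, by edgeR's quasi-likelihood test, and none of 14 in F2 females, with 3 at an unadjusted p under 0.05. In F3 females, the contrast used for the choice, 1 of 14 rose beside 1.07% of all genes. ADAMTS4, the aggrecanase related to ADAMTS5, rose in F1 males from 44.1 ± 10.3 (n = 5) to 85.4 ± 18.7 CPM (SD, n = 6, log2 fold change 0.95, SE 0.17, FDR 0.00576). In F2 females it was 38.3 and 75.7 CPM (0.98, FDR 0.0636) and in F1 females 92.4 and 49.3 CPM (-0.90, FDR 0.112). TIMP3, a matrix-bound inhibitor of these proteases, fell in F1 females from 121 to 90.4 CPM (-0.41, FDR 0.00552, and -0.36 with an FDR of 0.0169 without controls 1 and 4), and the secreted inhibitor TIMP1 rose in F1 males from 3.71 to 5.06 CPM (0.45, FDR 0.0207).

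Of 17 tested proteins that bind the net or receive its signals, 4 rose and none fell in F1 females by edgeR's quasi-likelihood test, where 9.21% of all genes rose. In F3 females, the contrast used for the choice, 4 of 17 rose, where 1.07% of all genes did, and nothing is read from that count. In F1 males 1 of 18 rose, beside 5.74% of all genes. None of 18 passed in F2 females, with 3 at an unadjusted p under 0.05. NPTX1, a pentraxin that gathers glutamate receptors at synapses, rose in F1 females from 399 ± 126 to 933 ± 246 CPM (SD, n = 4 each, log2 fold change 1.23, FDR 0.0173). Its relative NPTX2, which is enriched at synapses on parvalbumin cells, rose from 76.1 to 153 CPM (1.00, FDR 0.0306), and CNTN1, a neural adhesion molecule that binds tenascin-R, from 410 to 524 CPM (0.35, FDR 0.00605). PTN, pleiotrophin, a growth factor bound by chondroitin sulfate, rose in F1 males from 293 to 359 CPM (0.30, FDR 0.00578). With 1 animal left out NPTX1 passed in 7 of 8 fits (FDR 0.0508 without control 3) and NPTX2 in 2 of 8 (without control 1 and without sGC animal 3, with FDRs of up to 0.0811 in the others). Without controls 1 and 4 the log2 fold changes of NPTX1, NPTX2 and CNTN1 were 1.37, 1.21 and 0.39, with FDRs of 0.0245, 0.0231 and 0.0187. NPTX1 and NPTX2 rose in the table in which excitatory markers also differed between the groups, as given above with CRTAC1.

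**Figure D4:**
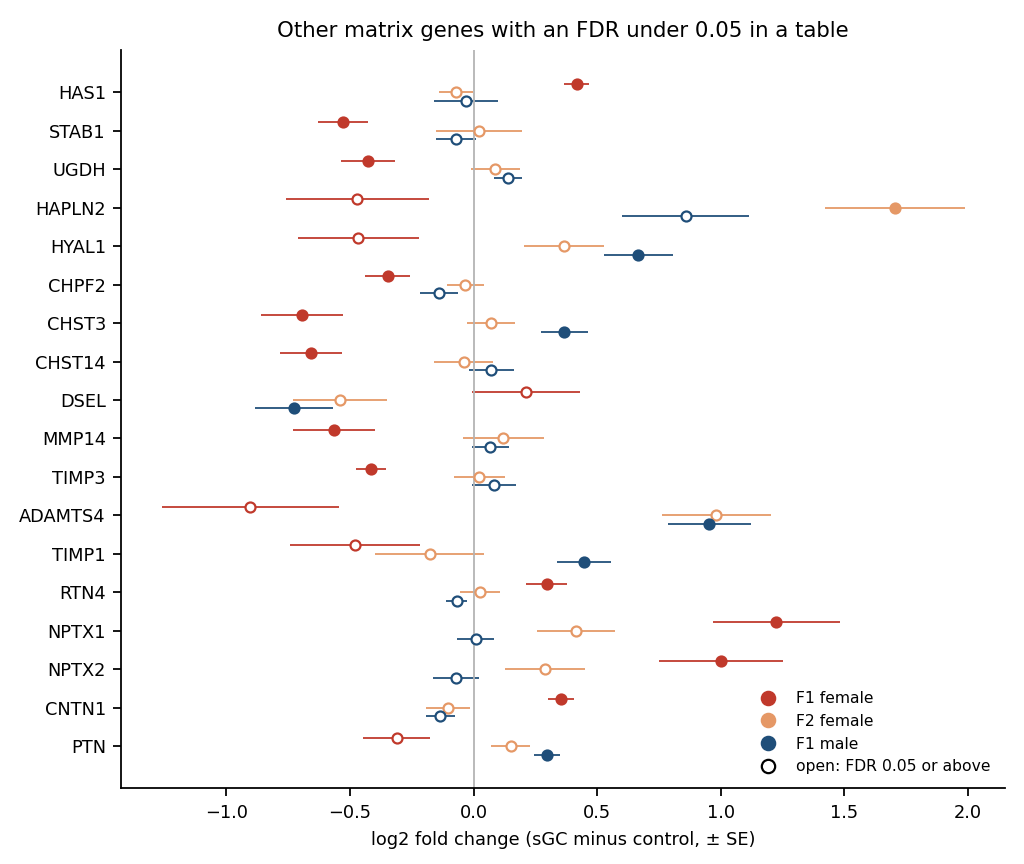
Fitted log2 fold change (sGC minus control, bars ± 1 SE) of the genes of the hyaluronan, chondroitin sulfate, protease and net-partner lists that passed an FDR of 0.05 in F1 females, F2 females or F1 males, filled where they passed and open where they did not. CHST3 lay at -0.69 in F1 females and 0.37 in F1 males, and ADAMTS4 at -0.90 and 0.95.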

How the data were processed

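Polyadenylated RNA of 35 animals was sequenced as short single-end reads. The authors deposited 4 tables, each with raw read counts per gene and animal for 1 sex and generation. TopHat2 and edgeR are named in the submitters' processing notes, and the read counter and genome build are not given in the sources used here. The tables also hold the authors' dispersions, fold changes, mean levels, likelihood ratios and p-values, which were not used.

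Animals were grouped by their titles. Each table was filtered (filterByExpr, minimum count 10, minimum total 15), TMM-normalized and tested alone by edgeR 4.0.16 quasi-likelihood (R 4.3.3), sGC against control. P-values were adjusted over all its genes, with an FDR threshold of 0.05. SE is the size of the log2 fold change over the root of F. Differences in response between tables were interaction terms over shared genes, and pairs with F3 females were not tested. Alternatives were the likelihood ratio test (the study's own), DESeq2 1.42.0, RLE and upper-quartile normalization, no filter, the replicate number as a block, and leaving out animals. P-values measure the spread between animals, which for the males may include litter mates.

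The members and the gene lists were chosen with earlier results of these data known. Besides the members, genes of 4 matrix lists were named if their FDR was under 0.05 in F1 females, F2 females or F1 males, at most 8 per table by p, together with HAPLN2, HAPLN3, HAS1 and HAS2, and for each member the 3 genes most like it. Some genes that this rule names are not reported here. Likeness was Pearson's r of log2 CPM (prior count 2) after removal of group means. No library was a copy of another of its own group: the lowest chi-square per degree of freedom between replicates was 2.84. Libraries of different groups were not compared in this way. On simulated counts, changes of 1 on the log2 scale were recovered for 81.3% of 198 genes in F1 females (11223 genes), 91.9% of 197 in F2 females (11097 genes), 90.4% of 198 in F3 females (11387 genes) and 96.5% of 200 in F1 males (11500 genes). The simulated counts were drawn gene by gene, with no difference between punches shared by many genes, and smaller changes were not made. These shares therefore do not tell how often smaller changes, or changes in genes as scattered as HAPLN4, would be found. Genome positions are not given, because the table of guinea pig genes at hand names no chromosome.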

Additional observations from a re-analysis of the deposited data

Results flagged for a closer look

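HAS3 in F2 sGC female 2 was 0.9988 CPM, apart from the other 3 animals of its group at 0.824 to 0.833 CPM. The gap was 0.948 of the range of the group, over Dixon's 95% limit for 4 values. It was the only such value among 72 groups of member values, where chance gives about 1 in 20. The 4 values rest on 11 to 14 reads each.

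BCAN responded differently in F1 males and F1 females, by 0.83 on the log2 scale (male minus female, interaction FDR 0.000161 in edgeR's quasi-likelihood test), from -0.63 in females to 0.22 in males. VCAN did so by 1.08 (FDR 0.00306), from -0.61 to 0.48. The 2 sexes were deposited as separate tables of different depth, which cannot be told apart from sex. BCAN also differed between F2 and F1 females, by 0.65 (F2 minus F1, FDR 0.00988). Each of these differences passed in every fit that left out 1 animal (19, 19 and 16 fits) and without F1 female controls 1 and 4.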

How the results depend on the processing

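The number of the 9 genes past an FDR of 0.05 was 1 in F1 females, 0 in F2 females, 1 in F3 females (fixed by the choice) and 1 in F1 males, and 2, 1 and 0 for the differences in response between F1 females and F1 males, F1 and F2 females, and F2 females and F1 males. The likelihood ratio test and DESeq2 each gave 2 in F1 females, 1 in F2 females and 2 in F1 males, where CRTAC1, CRTAC1 and BCAN were added. Of all genes these tests called 2100 and 2423 of 11268 in F1 females, in that order. They called 534 and 473 of 11132 in F2 females and 1410 and 1590 of 11524 in F1 males. Leaving out 1 animal gave 1 to 3, 0 to 1, 1 to 2 and 1 to 2 in the 4 tables and 2 to 4, 1 to 2 and 0 to 0 for the differences. The highest counts came without F1 female control 1 (3, and 2 against F2 females), F1 female sGC 3 (4 against F1 males), F2 female control 1 or sGC 2 (1), F3 female control 1 (2) and F1 male control 3 or sGC 3 (2). Of all genes the same fits, in the same order, called 2115 of 11291, 1906 of 11177 and 3252 of 11274. The F2 fits called 245 of 11174 and 487 of 11180, and the F3 fit 598 of 11449. The male fits called 716 of 11552 and 783 of 11499. RLE and upper-quartile normalization and no filter changed none of these counts.

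Animals with the same replicate number did not deviate together (correlations of -0.332 to 0.338), so the numbers do not pair them. With the replicate number as a block the counts were 1, 0, 1 and 1, and 2, 1 and 0, as without it. Over all genes, the likelihood ratio test and DESeq2 called 534 and 473 in F2 females against 31, and 616 and 632 in F3 females against 153. With 1 animal left out the test called 613 to 2115 genes in F1 females, 0 to 487 in F2 females, 20 to 598 in F3 females and 667 to 1613 in F1 males. For the named genes of the matrix lists the same alternatives were added after seeing the data. TIMP1 in F1 males did not pass with the block (0.457, FDR 0.0654).

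TNR had no stable sign. In F1 females its log2 fold change was -0.01386 with upper-quartile normalization, -0.008666 without controls 1 and 4, and between -0.01107 and 0.06605 with 1 animal left out. In F1 males it was -0.001816 with upper-quartile normalization, -0.03115 with the block, and between -0.0288 and 0.03492 with 1 animal left out. With 1 F2 female left out the sign also changed for HAPLN1 (range -0.02819 to 0.1189), ACAN (-0.1614 to 0.02861), BCAN (-0.01829 to 0.083), TNR (-0.08149 to 0.04939) and HAS3 (-0.002469 to 0.3833). The cause was not tested. HAS3, ADAMTS5 and ACAN had as few as 6, 14 and 37 reads in a library.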

Other observations

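Cell types not tied to a result above were also read from their markers in edgeR's quasi-likelihood test. Of microglial markers 4 of 5 fell in F1 females, beside 7.33% of all genes. Microglial sums there were 234 to 283 CPM in controls and 175 to 197 CPM in sGC animals. None of 5, 6 and 6 passed in F2 females, F3 females and F1 males, with 0 at an unadjusted p under 0.05 in each. Of endothelial markers 1 of 6 fell in F1 females, beside 7.33% of all genes. None of 6 passed in F2 females, F3 females and F1 males, with 0, 1 and 0 at an unadjusted p under 0.05. Endothelial sums were 251 to 348 CPM in F1 and F3 females and 1130 to 1588 CPM in F2 females and F1 males. ESAM alone carried that step between tables, with control means of 19.1, 971, 14.4 and 1106 CPM in F1, F2 and F3 females and F1 males. Of striatal markers 5 of 8 fell in F1 females, beside 7.33% of all genes. In F2 females 1 of 5 rose, beside 0.278% of all genes in either direction. None of 8 and 7 passed in F3 females and F1 males, with 5 and 0 at an unadjusted p under 0.05. No marker of the paraventricular nucleus passed in any table, with 0, 1, 0 and 0 at that level in F1, F2 and F3 females and F1 males. For oligodendrocyte precursors none of 8 passed in F2 or F3 females, with 2 and 1 at that level, and for mature oligodendrocytes none of 7 in F3 females, with 0 at that level.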
